A study of Mus musculus with 4 samples.

Results

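The protein-coding genes that surround *Tet3* on mouse chromosome 6 were followed as one chromosomal neighbourhood. Members were the protein-coding genes of the deposited table whose listed start lay within 5 Mb of the listed start of *Tet3*, apart from *Tet3* itself and 6 genes that the selection leaves out by name (*Actg2*, *Clec4f*, *Cd207*, *Dysf*, *Mthfd2* and *Reg3g*). This gave 91 of the 21462 genes in the table. Of these, 76 had a mean of at least 10 normalized counts and were tested, and 15 lay below that minimum.

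RNA was sequenced from tdTomato-labelled smooth muscle cells sorted from the lungs of adult C57BL/6 mice. In the 2 Tet3 mutant animals, a tamoxifen-inducible Cre under the α-SMA promoter removed a loxP-flanked segment of both *Tet3* alleles (Tet3 fl/fl), so that recombination reached only cells in which this promoter was active. The 2 control animals had no floxed allele. For all experiments together, the methods describe controls that carried the Cre, the tdTomato reporter or both. The cells here were sorted for tdTomato, so these controls carried the reporter, and its labelling of smooth muscle cells depends on the Cre. The methods state tamoxifen injection for the inducible model, and no sex is given in the labels. All values are normalized counts, that is, reads per gene scaled between libraries and rounded to whole numbers, and every fold change compares mutants with controls on the scale log2(value + 1), positive where the mutants were higher.

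TET3 oxidizes 5-methylcytosine in DNA to 5-hydroxymethylcytosine, an early step in the removal of DNA methylation. Genes that lie close together on a chromosome can share enhancers and chromatin domains, and a targeted allele is inherited together with the DNA next to it. The genes beside *Tet3* are mostly housekeeping genes of mitochondria, vesicle traffic, RNA handling and chromatin, mixed with tissue-restricted genes such as the *Nat8* acetyltransferase family.

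The promoters of 4 members are shown because they belong to the nearest neighbour on each side of *Tet3* and to a pair of adjacent genes whose start sites lie 7 bp apart. Sequences are the 250 bases before the RefSeq start site (GRCm38.p6), read 5′ to 3′ in the direction of the gene, with every CG dinucleotide, the target of DNA methylation, in capitals.
Bola3 (chr6:83348897-83349146, plus strand): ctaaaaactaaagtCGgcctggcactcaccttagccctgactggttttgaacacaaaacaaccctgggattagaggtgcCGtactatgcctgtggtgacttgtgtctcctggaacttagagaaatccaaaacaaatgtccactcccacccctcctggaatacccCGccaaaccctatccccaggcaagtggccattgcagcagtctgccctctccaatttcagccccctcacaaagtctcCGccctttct
Dguok (chr6:83506970-83507219, minus strand): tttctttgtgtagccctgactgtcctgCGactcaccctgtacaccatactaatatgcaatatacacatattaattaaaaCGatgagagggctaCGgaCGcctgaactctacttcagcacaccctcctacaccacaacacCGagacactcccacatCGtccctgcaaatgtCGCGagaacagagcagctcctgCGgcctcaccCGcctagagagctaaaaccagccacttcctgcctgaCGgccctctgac
1700003E16Rik (chr6:83156154-83156403, plus strand): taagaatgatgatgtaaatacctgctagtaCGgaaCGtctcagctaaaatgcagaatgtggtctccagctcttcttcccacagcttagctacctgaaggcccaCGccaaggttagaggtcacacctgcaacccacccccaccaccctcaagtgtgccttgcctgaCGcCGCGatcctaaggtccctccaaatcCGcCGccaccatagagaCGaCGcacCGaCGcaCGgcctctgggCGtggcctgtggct
Wdr54 (chr6:83156380-83156629, minus strand): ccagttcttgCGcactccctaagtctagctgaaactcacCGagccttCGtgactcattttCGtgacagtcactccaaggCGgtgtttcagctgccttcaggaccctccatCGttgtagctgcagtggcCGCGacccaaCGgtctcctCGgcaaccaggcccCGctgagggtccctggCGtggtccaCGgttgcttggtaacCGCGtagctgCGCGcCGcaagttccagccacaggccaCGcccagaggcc
The windows hold 4 CG in *Bola3*, 11 in *Dguok*, 14 in *1700003E16Rik* and 19 in *Wdr54*. Of the 32851 RefSeq promoters of the same length, 62.2%, 35.6%, 29.4% and 19.7% hold at least as many, respectively. The last 2 windows overlap and are read from opposite strands.

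RefSeq held a promoter for 77 of the 91 members by symbol. The motif counted was CG, which reads the same on both strands and cannot overlap itself. The 65 tested members with a window had a median of 14 CG, the 12 untested members a median of 3, and all promoters a median of 6. At least 10 CG stood in 47 of the 65 tested members and in 1 of the 12 untested members, against 37.8% of all promoters. The set of all promoters was not filtered by expression level as the tested members were, so it is not a like background. In some members the RefSeq start site lay far from the listed gene start, as in *Pole4* (52491 bp) and *Slc4a5* (17547 bp). The median size of the log2 fold change was 0.10 in the 47 members with at least 10 CG and 0.18 in the 18 members with fewer. Their levels also differed, at medians of 296 and 225 normalized counts, respectively. DNA methylation of these windows is not analysed here.

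The targeted gene was looked at as a limited check of the labels. *Tet3* (ENSMUSG00000034832, chromosome 6, 83362373 to 83459084, minus strand, GRCm38) had 1847 and 1926 normalized counts in the controls and 1534 and 1444 in the mutants. Both mutant libraries lay below both controls, as in 19.5% of all genes, so this order alone does not establish the labels. The log2 fold change was -0.34 (standard error, SE, 0.10, limma adjusted p 0.681). The 95% interval ran from -0.60 to -0.09, and the values count reads over the whole gene, including exons outside the floxed segment.

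The libraries also differed in sex-linked genes and in markers of other cell types. Control 2 was the only library with Y-linked *Ddx3y* (774 normalized counts against 0, 0 and 0) and had 2 of *Xist*, against 6781 in control 1 and 6542 and 5214 in the mutants. Smooth muscle markers were abundant in every library, at a summed 10728 to 12849 normalized counts over 10 genes, and none was at 0. Of these 10 genes, 6 were higher in both mutants and 0 lower in both, with a median log2 fold change of 0.46. Fibroblast markers summed to 16196 to 21240 over 8 genes, and endothelial markers to 13580 to 15093 over 8 genes. Both sums were above that of smooth muscle in every library, but sums over different genes do not give shares of cells. Higher in both mutants were 3 of the fibroblast and 2 of the endothelial markers, and 0 were lower in both. Summed alveolar type 2 markers were 15413 and 22636 in the controls and 11287 and 13809 in the mutants, with 6 of 8 genes lower in both mutants. Ciliated cell markers summed to 2167 and 2408 in the controls and 4694 and 3060 in the mutants, with 8 of 8 genes higher in both mutants. Macrophage markers summed to 6332 and 5385 in the controls and 7039 and 8278 in the mutants, with 7 of 9 genes higher in both. No marker of these 3 lists was at 0 in any library. Pericyte markers were higher in both mutants in 4 of 6 genes and lower in both in 1. The latter was *Rgs5*, with 244 and 342 normalized counts in the controls and 192 and 201 in the mutants. Neutrophil markers were higher in both mutants in 4 of 5 genes and lower in both in 0. T cell markers summed to 576 and 170 in the controls and 661 and 643 in the mutants, with 4 of 7 genes higher in both mutants. Of all genes, 19.6% were higher in both mutants and 19.5% lower in both. The methods state that CD45 and Ter-119 beads removed hematopoietic cells before the tdTomato sort. These marker differences run with genotype, and their part in the results for the flanking genes was not tested, and in these bulk samples fewer cells of a type and less RNA per cell cannot be told apart.

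Most flanking genes differed little between the groups, and none passed the test over all genes. By limma adjusted p, 0 of the 76 tested flanking genes passed 0.05, and over all 16659 genes tested the share was 0%. The smallest adjusted p among the flanking genes was 0.681. An unadjusted p under 0.05 was found in 4 flanking genes, or 5.26%, against 6.68% of all genes. Of these, 2 were higher in the mutants (*1700003E16Rik* and *Asprv1*), where the background is 3.83%, and 2 were lower (*Slc4a5* and *Eva1a*), where it is 2.85%. The groups did not overlap in 20 flanking genes, or 26.3%, against 39% of all genes. Both mutants were above both controls in 10 and below both in 10, each 13.2%, against 19.6% and 19.5% of all genes.

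The median log2 fold change of the flanking genes was -0.02, against -0.01 over all genes and 0.03 over the 626 other protein-coding genes of chromosome 6 that were tested. Without regard to sign, the median was 0.12 in the flanking genes, 0.20 in all genes, 0.18 in all protein-coding genes and 0.21 in the rest of chromosome 6. Within 0.25 of no change lay 53 of the 76 flanking genes (69.7%), against 62.0% of all protein-coding genes and 56.2% of the other chromosome 6 genes. At the other end, 5 flanking genes (6.58%) had a log2 fold change over 1 in size, against 5.89% of all genes.

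These counts depend on which genes the selection keeps. Among the 6 genes left out by name, 5 had an unadjusted limma p under 0.05 and all 5 were higher in both mutants. *Actg2*, a smooth muscle gamma actin 53.8 kb from *Tet3*, had 101 and 158 normalized counts in the controls and 237 and 311 in the mutants. *Mthfd2*, a mitochondrial folate enzyme 36.5 kb away on the other side, had 88 and 82 in the controls and 140 and 155 in the mutants. *Dysf*, the membrane repair protein dysferlin, had 270 and 241 in the controls and 467 and 464 in the mutants. The langerin gene *Cd207* and the Kupffer cell lectin *Clec4f* were also higher in both mutants, the latter with 0 and 0 normalized counts in the controls and 14 and 56 in the mutants. *Reg3g* was variable, with 94 and 2 in the controls and 29 and 50 in the mutants. With the 6 genes restored, 9 of 82 genes (11.0%) had an unadjusted p under 0.05, the groups did not overlap in 25 (30.5%), and the median log2 fold change was -0.01. The lower share of the flanking genes at that p than of all genes therefore does not hold for the whole window. Without regard to sign, the median was 0.14 with the 6 genes restored, against 0.12 without them and 0.18 in all protein-coding genes. Under 0.1 in size lay 41.5% with them, 44.7% without them and 32.2% of all protein-coding genes. The small size of the changes among the flanking genes is thus partly set by the selection.

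**Figure D1:**
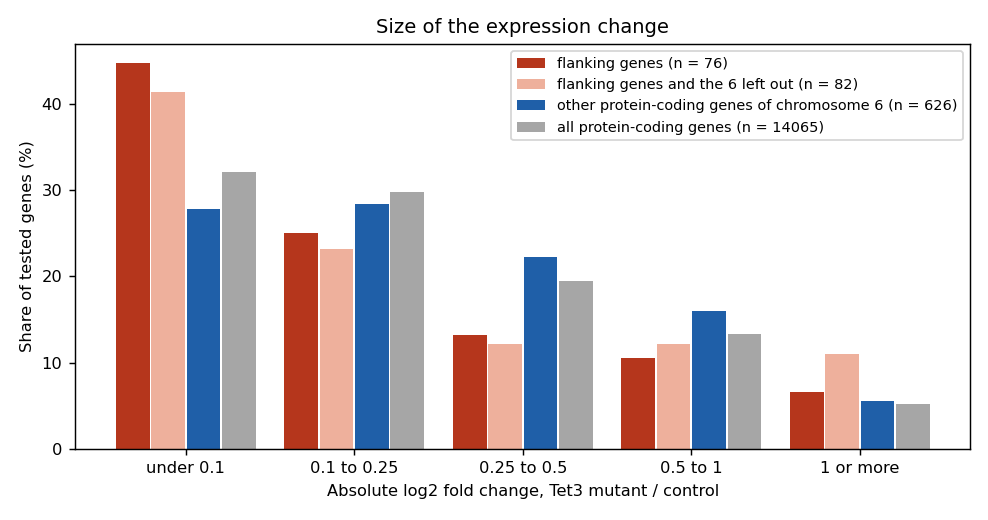
Share of tested genes (y axis, %) by absolute log2 fold change between Tet3 mutant and control (x axis, 5 classes) for the 76 flanking genes, the same genes with the 6 left out by name restored, the other protein-coding genes of chromosome 6 and all protein-coding genes. Under 0.1 lie 44.7% of the flanking genes and 32.2% of all protein-coding genes, while 1 or more is reached by 6.58% of the flanking genes and by 11.0% once the 6 genes are restored.

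The 2 libraries of one genotype also differed from each other. The 2 controls differed from each other by more than the size of the fold change in 53 of the 76 flanking genes (69.7%, against 62.6% of all genes). The 2 mutants did so in 49 (64.5%, against 47.8% of all genes). A difference between 2 single libraries varies more than a difference between means of 2. These shares therefore do not weigh the spread against the genotype difference, and are given only beside those of all genes. Control 2 lay more than 2-fold from all 3 other libraries in 5 flanking genes (6.58%, against 6.02% of all genes), namely *Slc4a5*, *Rtkn*, *M1ap*, *Sema4f* and *Cyp26b1*. Mutant 1 did so in 3 (3.95%, against 1.49%), namely *Slc4a5*, *M1ap* and *Asprv1*, and the other libraries in 0.

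By distance, the 25 tested flanking genes within 0.5 Mb of *Tet3* had a median log2 fold change of -0.04, with 7 values above 0 and 18 below. The groups did not overlap in 8 of these 25 (32.0%, against 39% of all genes). The left-out *Mthfd2*, *Actg2*, *Clec4f* and *Cd207* also lie within 0.5 Mb, and *Dysf* lies at 0.55 Mb. All of these were higher in both mutants, so the values by distance hold for the members only and not for every gene near *Tet3*. The median was 0.07 for the 11 genes at 1 to 2 Mb and -0.01 for the 38 genes beyond 2 Mb, and 2 genes lay between 0.5 and 1 Mb. Within 1 Mb, 27 genes had a median of -0.07, which went to 0.00 without control replicate 2 or without Tet3 mutant replicate 1 and to -0.18 without Tet3 mutant replicate 2. Across the 76 genes, which share the same 4 libraries, distance and the size of the fold change had a Pearson correlation of -0.24 and a Spearman correlation of -0.23. Most members lie on the side of higher coordinates, where 12 of 52 genes had groups that did not overlap (23.1%). The count was 8 of 24 on the side of lower coordinates (33.3%), and both shares lie below the 39% of all genes.

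**Figure D2:**
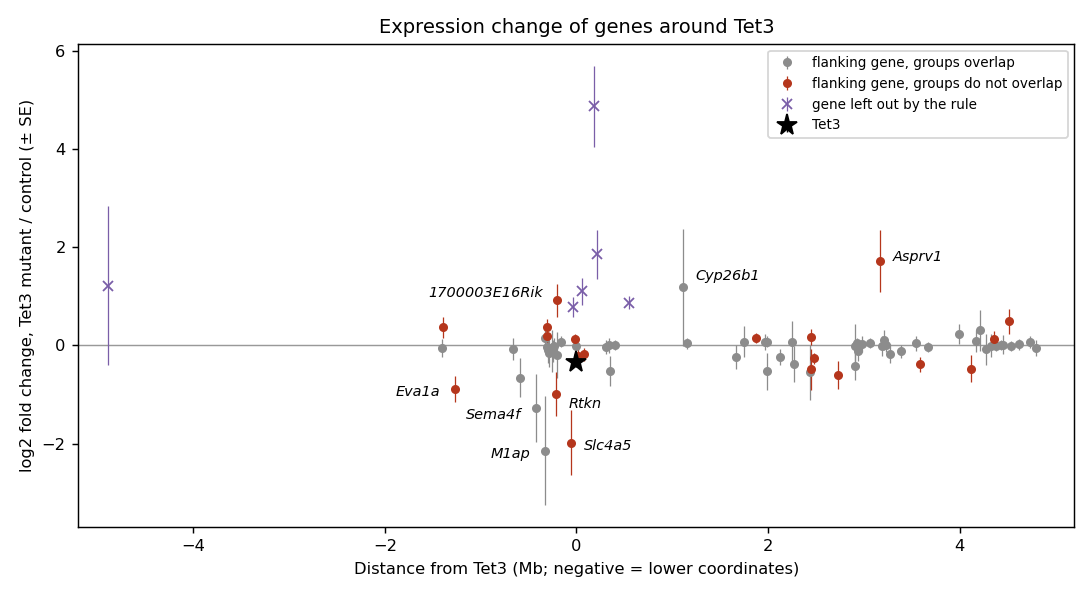
Log2 fold change, Tet3 mutant over control (y axis, bars ± SE of the limma fit), against distance from *Tet3* (x axis, Mb, negative toward lower coordinates) for the 76 tested flanking genes, the 6 genes left out by name (crosses) and *Tet3* (star). Most flanking genes sit close to 0 on both sides, with the widest values from *M1ap* at -2.15 to *Asprv1* at 1.72, and 20 of them, in red, have groups that do not overlap; the highest cross is *Clec4f*, whose controls are at 0, so its height depends on the added 1.

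Among the 10 nearest tested members, 5 on each side, the groups overlapped in 5 and did not overlap in 5. The latter were *Mob1a*, *Dguok*, *Slc4a5*, *Stambp* and *1700003E16Rik*, where 39% of all genes did not overlap. Nearer than some of these members lie *Mthfd2* (36.5 kb), *Actg2* (53.8 kb), *Clec4f* (185.5 kb) and *Cd207* (212 kb), which the selection leaves out. All of these left-out genes were higher in both mutants, so the counts do not describe all of the nearest genes. *Bola3*, a mitochondrial iron-sulfur cluster assembly factor 2.24 kb away (chromosome 6, 83349147 to 83360136, plus strand), had 126 and 124 normalized counts in the controls and 109 and 142 in the mutants. The controls lay between the 2 mutants. Its log2 fold change was -0.01, with a 95% interval from -0.58 to 0.56, so changes of up to about these sizes remain compatible with the data. This is also the member whose promoter window holds 4 CG.

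*Mob1a*, a co-activator of the LATS kinases of the Hippo pathway at 18.6 kb, had 1328 and 1224 normalized counts in the controls and 1366 and 1417 in the mutants. *Dguok*, the mitochondrial deoxyguanosine kinase at 21.1 kb on the other side, had 263 and 237 in the controls and 203 and 225 in the mutants. *Stambp*, an endosomal deubiquitinase at 84.1 kb, had 300 and 315 in the controls and 266 and 275 in the mutants. The groups of these 3 genes did not overlap, *Mob1a* being higher and the others lower in both mutants, at log2 fold changes of 0.13 (SE 0.10), -0.22 (SE 0.16) and -0.18 (SE 0.14) and limma adjusted p values of 0.745, 0.726 and 0.728.

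*Dctn1*, the large subunit of the dynein adaptor dynactin, had 1394 and 1605 normalized counts in the controls and 1610 and 1536 in the mutants. *Nagk*, the N-acetylglucosamine kinase, had 282 and 310 in the controls and 271 and 322 in the mutants, and *Tex261* had 624 and 555 against 525 and 621. Groups overlapped in all 3, and the log2 fold changes were 0.07, 0.00 and -0.04. *Paip2b*, an inhibitor of poly(A)-binding protein, had 274 and 458 in the controls and 207 and 292 in the mutants, at a log2 fold change of -0.53 (SE 0.31). Its groups overlapped because mutant 2 lay above control 1.

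**Figure D3:**
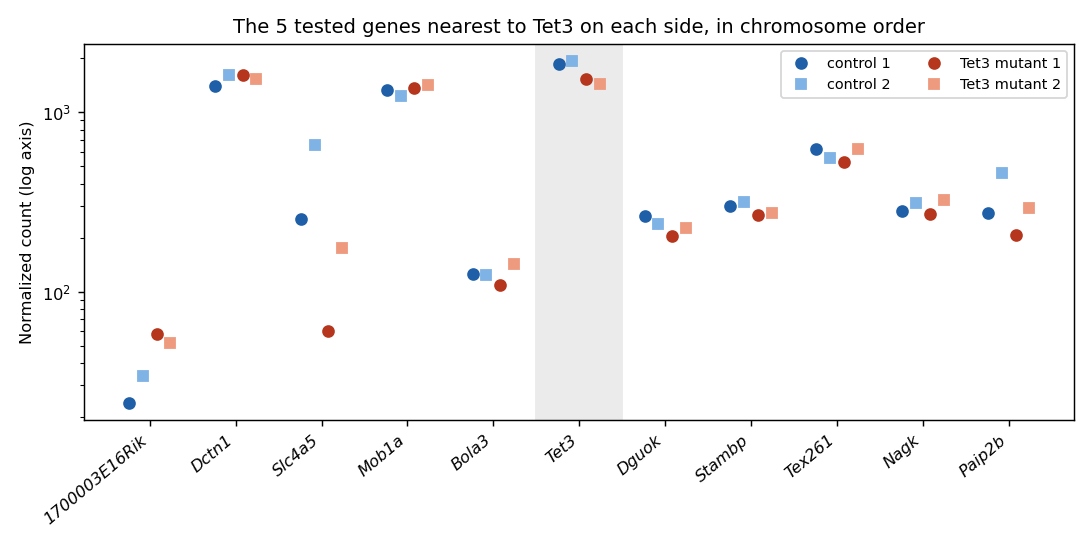
Normalized counts (y axis, log scale) in each of the 4 libraries for *Tet3* (shaded) and the 5 tested flanking genes nearest to it on each side, in chromosome order. *Slc4a5* spans 60 to 652 normalized counts, while *Bola3*, *Mob1a*, *Dguok* and *Stambp* have all 4 libraries close together.

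Among the nearest members the widest difference was in *Slc4a5*. The left-out *Clec4f*, 185.5 kb from *Tet3*, had a wider log2 fold change of 4.87, with both controls at 0. *Slc4a5* encodes a sodium bicarbonate cotransporter and lies 57.4 kb from *Tet3*. It had 255 and 652 normalized counts in the controls and 60 and 175 in the mutants. Both mutants were below both controls, and within each genotype the 2 libraries also differed more than 2-fold. The log2 fold change was -1.98 (SE 0.66, unadjusted limma p 0.0292, adjusted p 0.681), and it lay between -2.75 and -1.22 when each library was left out in turn.

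The other near member at an unadjusted p under 0.05 was *1700003E16Rik*, an uncharacterized gene 199 kb from *Tet3*. It had 24 and 34 normalized counts in the controls and 58 and 52 in the mutants. Both mutants were higher, at a log2 fold change of 0.92 (SE 0.34, unadjusted limma p 0.0409, adjusted p 0.681). *Wdr54*, which starts 7 bp away on the opposite strand and whose promoter window overlaps that of *1700003E16Rik*, had 27 and 60 in the controls and 38 and 32 in the mutants. Its mutants lay between the controls, at a log2 fold change of -0.20 (SE 0.47), and 27.1% of its exon bases are shared with *Rtkn*.

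Of the 4 divergent pairs, each with start sites within 1 kb, *Dok1* and *Loxl3* had log2 fold changes of 0.15 (SE 0.23) and 0.37 (SE 0.17). *Loxl3*, a lysyl oxidase-like enzyme that cross-links collagen and elastin, had 284 and 225 normalized counts in the controls and 340 and 316 in the mutants. *Dok1*, a docking adaptor below tyrosine kinases, had 105 and 124 in the controls and 112 and 143 in the mutants. Only *Loxl3* of this pair had groups that did not overlap.

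*Htra2*, a serine protease of mitochondria, had 166 and 142 normalized counts in the controls and 186 and 167 in the mutants. Its partner *Aup1*, which acts at lipid droplets and in protein degradation from the endoplasmic reticulum, had 563 and 601 in the controls and 566 and 578 in the mutants. The mutants were just above the controls in *Htra2* (log2 fold change 0.20, SE 0.19) and between them in *Aup1* (-0.02, SE 0.11), and 43.7% of the exon bases of *Htra2* are shared with neighbouring genes. *Pradc1* had 74 and 118 in the controls and 51 and 81 in the mutants, and its partner *Cct7*, a subunit of the chaperonin that folds actin and tubulin, had 677 and 771 in the controls and 753 and 771 in the mutants. Groups overlapped in *Pradc1* (-0.53, SE 0.37), and in *Cct7* (0.08, SE 0.12) mutant 2 was level with control 2.

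Members were then grouped by what they are known to do, in 6 lists that hold 62 of the 76 tested genes. Among genes of transcription and chromatin, 10 of 11 tested members lay within 0.25 of no change on the log2 scale. The share was 90.9%, against 62.0% of all protein-coding genes, and the median was -0.01. *Zfp638*, a zinc finger protein, had 2047 and 2123 normalized counts in the controls and 2216 and 1989 in the mutants. *Cnbp*, a nucleic acid-binding zinc finger protein, had 1116 and 1174 in the controls and 1195 and 1080 in the mutants. Both had controls inside the range of the mutants, and the 1 member whose groups did not overlap was the linker histone gene *H1f10*, with 69 and 57 in the controls and 93 and 84 in the mutants (log2 fold change 0.49, SE 0.25, limma adjusted p 0.687; 19.5% of exon bases shared with other genes).

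RNA processing and translation genes had a median of -0.04 over 10 tested members, of which 3 (30.0%, against 39% of all genes) had groups that did not overlap. *Dusp11*, an RNA 5′-triphosphatase, had 1196 and 1228 normalized counts in the controls and 1062 and 960 in the mutants. Its mutants were both lower, at a log2 fold change of -0.26 (SE 0.11, adjusted p 0.681). *Pcbp1*, a poly(C)-binding protein, had 712 and 775 in the controls and 774 and 762 in the mutants, with mutants between the controls.

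Genes of mitochondria and metabolism had a median of 0.00 over 12 tested members, and groups did not overlap in 4 (33.3%, against 39% of all genes). *Gfpt1*, the first enzyme of the hexosamine pathway, had 1331 and 1726 normalized counts in the controls and 1102 and 1217 in the mutants. The mutants were both lower, at a log2 fold change of -0.39 (SE 0.16, adjusted p 0.681). *Mrpl19*, a mitochondrial ribosomal protein, had 156 and 117 in the controls and 172 and 178 in the mutants, at 0.37 (SE 0.22), and 36.0% of its exon bases are shared with *Gcfc2*. The prenylcysteine oxidase gene *Pcyox1* had 936 and 871 in the controls and 901 and 968 in the mutants, with overlapping groups.

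The secretory and vesicle traffic genes were the most even list, with 13 of 14 tested members within 0.25 of no change and a median of -0.01. The share was 92.9%, against 62.0% of all protein-coding genes and 70.6% of those with a mean of at least 100. This list also had the highest median level of the lists, at 748 normalized counts against 279 in all protein-coding genes. The part of level in its evenness was not tested. *Copg1*, a subunit of the COPI vesicle coat, had 1470 and 1461 normalized counts in the controls and 1564 and 1393 in the mutants. *Rpn1*, a subunit of the oligosaccharyltransferase, had 1189 and 1378 in the controls and 1326 and 1270 in the mutants. *Rab7*, the late endosome GTPase, had 731 and 783 in the controls and 754 and 742 in the mutants. All 3 had overlapping groups, and their log2 fold changes lay between -0.02 and 0.02.

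Cytoskeletal, adhesion and adaptor genes had a median of -0.13 over 9 tested members. *Antxr1*, the anthrax toxin receptor that binds collagen, had the highest level of all flanking genes, with 2666 and 2653 normalized counts in the controls and 2674 and 2535 in the mutants. Its groups overlapped, at a log2 fold change of -0.03 (0.02 with equal library totals). *Rtkn*, a signalling adaptor, had 404 and 964 in the controls and 257 and 382 in the mutants. Both mutants were lower, but control 2 stood apart from the other 3 libraries, and the log2 fold change of -0.99 (SE 0.45) was -0.37 without control replicate 2. With *Wdr54* it shares 41.7% of its exon bases.

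The list of secreted factors, receptors and related enzymes and transporters had the widest values, with a median of -0.05 but a median size of 0.89 over 6 tested members. Groups did not overlap in 5 of these 6 genes (83.3%, against 39% of all genes). An unadjusted limma p under 0.05 was found in 2 (33.3%, against 6.68% of all genes). The lists were chosen with earlier results of these data known, so these shares are a description and not a test of the list. This list held *Slc4a5* and *Loxl3*, described above. *Cyp26b1*, which degrades retinoic acid, had 637 and 62 normalized counts in the controls and 828 and 249 in the mutants, so that each genotype had a high and a low library. Its log2 fold change was 1.18 (SE 1.19), and -0.49 without control replicate 2. *Tgfa*, a ligand of the EGF receptor, had 159 and 176 in the controls and 86 and 140 in the mutants, and *Prokr1*, a prokineticin receptor, had 57 and 58 against 41 and 41. Both mutants were below both controls in these 2 genes, at -0.60 (SE 0.29) and -0.48 (SE 0.28).

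*Asprv1*, a retroviral-like aspartic protease known from the epidermis, lies 3.17 Mb from *Tet3* and is also in that list. It had 5 and 7 normalized counts in the controls and 36 and 13 in the mutants. Both mutants were higher, mutant 1 most, at a log2 fold change of 1.72 (SE 0.63, unadjusted limma p 0.0416, adjusted p 0.681), and 1.02 without Tet3 mutant replicate 1. *Eva1a*, a membrane protein of the autophagy pathway 1.27 Mb from *Tet3*, is in none of the 6 lists. It had 105 and 89 in the controls and 46 and 58 in the mutants. Both mutants were lower, at -0.89 (SE 0.27, unadjusted limma p 0.0211, adjusted p 0.681), and the value stayed between -1.06 and -0.73 when each library was left out in turn.

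**Figure D4:**
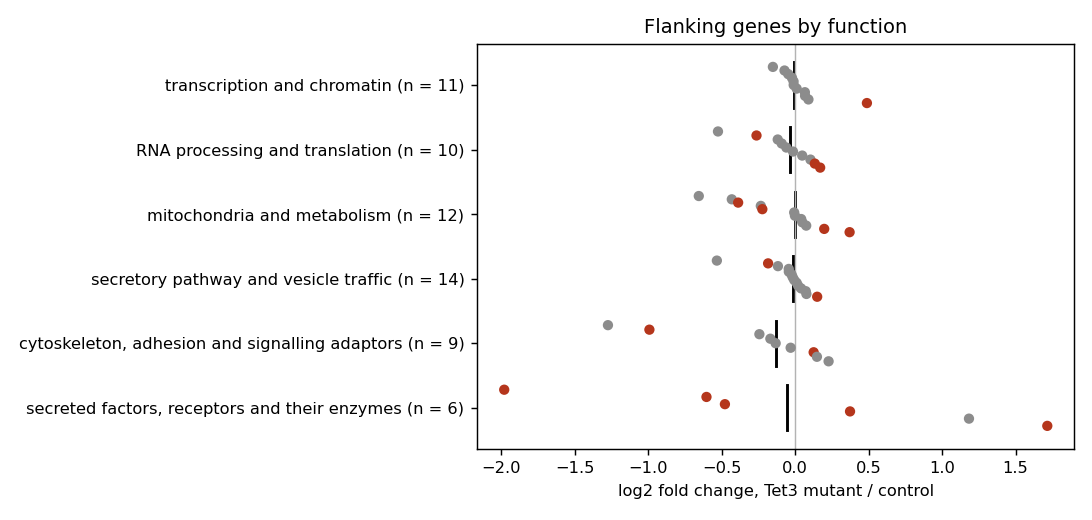
Log2 fold change, Tet3 mutant over control (x axis), of each tested flanking gene in 6 lists by function, 1 point per gene, with the list median as a black bar and genes whose groups do not overlap in red. The secretory and chromatin lists cluster around 0, while the 6 secreted factor, receptor and enzyme genes run from -1.98 (*Slc4a5*) to 1.72 (*Asprv1*).

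A few genes on the side of lower coordinates had one control far above the other. *Sema4f*, a semaphorin, had 158 and 687 normalized counts in the controls and 113 and 163 in the mutants. *Hk2*, a hexokinase, had 395 and 848 in the controls and 314 and 429 in the mutants, and *M1ap*, known from meiosis, had 10 and 63 against 2 and 11. These 3 genes were named after their values were seen. In each, control 2 was the highest library and mutant 1 the lowest, mutant 2 lay above control 1, and the log2 fold changes were -1.27 (SE 0.70), -0.66 (SE 0.39) and -2.15 (SE 1.10).

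The same order of libraries as the summed alveolar type 2 markers, from control 2 down through control 1 and mutant 2 to mutant 1, was present in 6 of the 76 flanking genes, namely *Slc4a5*, *Rtkn*, *Gfpt1*, *Stambp*, *Tgfa* and *Nat8f1*. This is 7.89%, against 7.87% of all genes, so the share is near the background. The order was looked for after the values were seen.

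**Figure D5:**
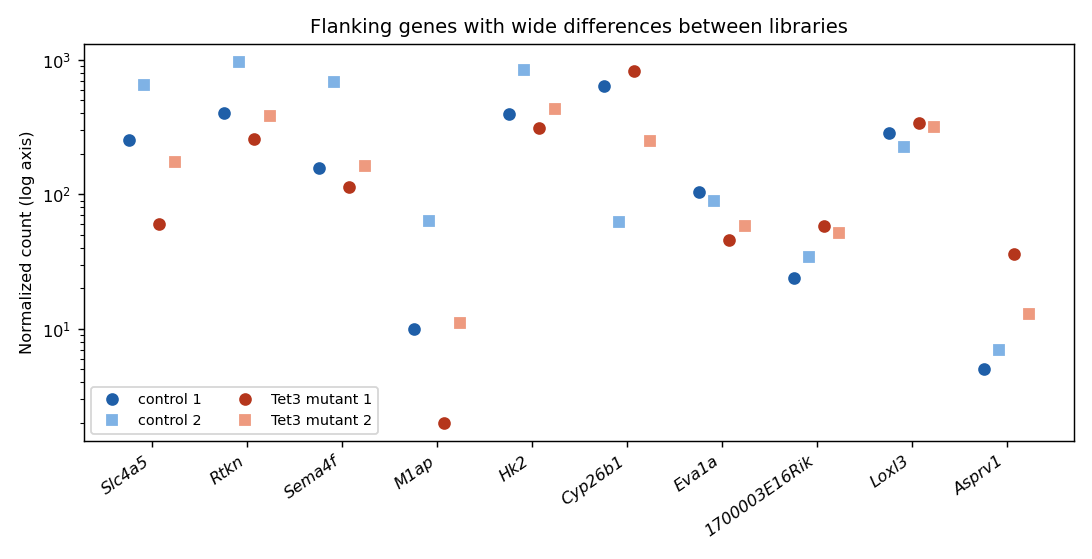
Normalized counts (y axis, log scale) in each of the 4 libraries for 10 flanking genes with wide or non-overlapping values. Control 2 is the highest library in *Slc4a5*, *Rtkn*, *Sema4f*, *M1ap* and *Hk2* and the lowest in *Cyp26b1*, while *1700003E16Rik*, *Loxl3* and *Asprv1* have both mutants above both controls.

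Per length of exon, the highest flanking genes were *Pcbp1* at 413 normalized counts per kb, *Cnbp* at 376, *Rab7* at 288, *Rpn1* at 286 and *Mob1a* at 278. *Tet3* itself stood at 101 on this scale. None of these 5 flanking genes had a log2 fold change beyond 0.13 in size.

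The 15 members below the minimum mean were *Ccdc142*, *Lbx2*, *Atp6v1b1*, *Tacr1*, *Noto*, *Fbxo41*, *Nat8f6*, *Nat8f5*, *Nat8*, *Add2*, *Gm20594*, *D6Ertd527e*, *Gkn3*, *Gp9* and *Gm45140*. They include homeobox genes (*Lbx2*, *Noto*), a gastric secreted protein (*Gkn3*), a platelet glycoprotein (*Gp9*) and *Nat8* family genes. *Add2*, the beta subunit of the membrane skeleton protein adducin, had 4 and 3 normalized counts in the controls and 17 and 10 in the mutants, and *D6Ertd527e* had 10 and 16 against 4 and 2. Their groups did not overlap either, but some of these values lie near the floor of 3 counts. Both genes had an unadjusted limma p under 0.05 when the minimum mean was set to 1, where all 91 members were tested and 6 reached that p (6.59%, against 6.12% of all genes).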

How the data were processed

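The authors trimmed single-end stranded total RNA reads with Trimmomatic 0.36, aligned them with STAR 2.6.0c to mm10 (GRCm38), counted uniquely mapped reads over exons with featureCounts (Subread 1.6.0) and scaled the counts with DESeq2 (tools and versions from the submitters' processing notes and the study's methods). The deposited values are a score, that is, normalized counts that the authors rounded to whole numbers, not raw counts. Deposited totals were 6805272 to 7164573 per library. Whether strand was used in counting is not given in the sources used here, so overlapping genes are uncertain: 19 members share over 10% of their exon bases with another gene, 16 of them tested. Paralogues such as the Nat8 family lose reads that map to several places.

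Genes with a mean of at least 10 were compared on log2(value + 1) with limma 3.58.1 in R 4.3.3 (lmFit, eBayes with trend), 2 against 2 libraries, with Benjamini-Hochberg adjustment over 16659 genes. The fit was tested on simulated data. Fold changes on this scale understate changes of low genes. An exact permutation test of 1 value could not go below 0.333 here. The study states independent animals. Distance is the gap between gene ends, GENCODE M21 gave exons, and 90 of the 91 members had the same coordinates there. Floors and intervals cover counting error or the spread between libraries only, since reads carry no molecular identifiers.

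The members and lists were chosen with earlier results of these data known. Genes were named by rule as the 5 nearest tested on each side, those with an unadjusted p under 0.05, the 3 largest changes each way where the mean reached 50 and the groups did not overlap, the 2 most abundant per function list, the 5 highest per kb and the divergent pairs. Alternatives were pseudocounts, minimum means, TMM factors, equal totals, no trend, a replicate block, leaving out 1 library at a time, other windows and, added after the data were seen, members without shared exons.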

Additional observations from a re-analysis of the deposited data

How the results depend on the processing

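No flanking gene passed an adjusted p of 0.05 in limma under any of the 12 alternative settings of the fit. The smallest adjusted p among them ranged from 0.149 to 0.998 over all settings. The number at an unadjusted p under 0.05 was 4. It was 6 of 91 at a minimum mean of 1 (6.12% of all genes) and 2 of 64 at a minimum mean of 50 (6.85% of all genes). It was 9 of 82 with the 6 left-out genes restored (6.68% of all genes) and 10 with the replicate number as a block. Leaving out each library in turn gave 0 to 8. It was 0 without Tet3 mutant replicate 1 and 8 without control replicate 1, where the shares of all genes were 1.64% and 20.2%, and 2 without control replicate 2 (5.37% of all genes).

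Under the replicate block the 10 genes were *Asprv1*, *Cyp26b1*, *Eva1a*, *Gfpt1*, *Hk2*, *M1ap*, *Paip2b*, *Rtkn*, *Sema4f* and *Slc4a5*, and 9.83% of all genes passed. Deviations of same-numbered libraries had a Pearson correlation of 0.13 over genes, with 2 pairs, and the labels do not tie the numbers to a litter or day, so the numbers were not taken to pair the libraries.

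The median within 1 Mb ranged from -0.184 to 0.0024 when each library was left out. The log2 fold change of *Tet3* ranged from -0.39 to -0.30 then and was -0.29 with equal library totals. The 14 genes named by rule whose groups did not overlap kept their sign in the 8 settings that keep all libraries. *1700003E16Rik* and *Asprv1* lay below the minimum mean of 50 and have no value there. Among these settings only TMM factors and equal library totals could have turned a sign, since the rest keep the order of each gene's libraries. Leaving out 1 library cannot turn the sign of a gene whose groups do not overlap either. Of the 19 whose groups overlapped, 2 kept their sign in every fit without 1 library and 12 in the 8 other settings. The causes were not tested. With 2 libraries a group, changes within the intervals given above remain compatible with the data. The intervals are not detection limits of the test over all genes. *Slc4a5*, at a log2 fold change of -1.98, had a limma adjusted p of 0.681, so larger changes could also go without a call.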
